A study of Mus musculus with 6 samples.

Results

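The miR-26 and miR-101 families were followed in small RNA libraries of mouse iBN cells, a granulocyte-macrophage progenitor line with a PU.1-inducible system (PU.1, the product of Spi1, is a transcription factor of myeloid cells). They are the mature arms of the miR-26a, miR-26b, miR-101a, miR-101b and miR-101c hairpins, which gives 10 of the 1915 mature microRNA names in the deposited counts. In the miR-26 family these are mmu-miR-26a-5p, mmu-miR-26a-1-3p, mmu-miR-26a-2-3p, mmu-miR-26b-5p and mmu-miR-26b-3p, and in the miR-101 family mmu-miR-101a-3p, mmu-miR-101a-5p, mmu-miR-101b-3p, mmu-miR-101b-5p and mmu-miR-101c, written below without the species prefix. They were chosen by name, because both families are known for targeting Ezh2, and for names with several entries the entry with the most reads was kept. Cells without induction (n = 3 libraries, the controls) were compared with cells given 1000 ng/ml doxycycline for 72 hours (n = 3 libraries), with trials 1, 2 and 3 in each group. All libraries came from the same line in suspension culture with GM-CSF and fetal bovine serum, so every control also carried the inducible PU.1 system, and no doxycycline-treated cells without it were analysed here. Whether the trials were separate cultures is not stated in the labels, so p-values here reflect only the spread between libraries, which can be technical.

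Animal microRNAs are cut from a hairpin as a pair of strands, of which usually 1 (the guide) is loaded into Argonaute and the other (the passenger) is degraded. The guide pairs with messenger RNAs mainly through its seed, bases 2 to 8 from the 5′ end, and lowers their stability and translation. Ezh2 is the histone methyltransferase of Polycomb repressive complex 2, which silences differentiation genes in progenitor cells, and both families are known to repress it, with miR-101 and miR-26a often described as lost in tumours. Ezh2 itself was not measured by this assay.

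The guide arms are shown first because the comparison of doses rests on which of them share a seed. Sequences are from RefSeq on GRCm38, the assembly also called mm10, where all 10 members were matched by name, and capitals mark bases 2 to 8.
miR-26a-5p: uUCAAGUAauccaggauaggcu
miR-26b-5p: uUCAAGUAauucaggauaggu
miR-101a-3p: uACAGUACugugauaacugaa
miR-101b-3p: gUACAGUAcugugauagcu
miR-101c: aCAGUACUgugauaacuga
The guides of the miR-26 family have the same seed and differ by C11U and C21U, counted from the 5′ end of miR-26a-5p. The miR-101 guides, as annotated, start at 3 different bases of a shared stretch. Counted from the 5′ end of miR-101a-3p, miR-101b-3p starts 1 base earlier and differs by A16G in the 18 bases they share, while miR-101c starts 1 base later and lies wholly inside miR-101a-3p with 0 differences. Bases 2 to 8 therefore read differently in each of the 3. The deposited table gives no read ends, so the 5′ ends that were sequenced were not analysed here, and reads that match both miR-101a-3p and miR-101c cannot be assigned to either.

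The passenger arms of the miR-26a copies are shown because they tell apart hairpins that make the same guide.
miR-26a-1-3p: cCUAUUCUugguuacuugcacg
miR-26a-2-3p: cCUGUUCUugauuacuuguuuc
These 2 arms differ at 6 of 22 bases, and A4G, counted from the 5′ end of miR-26a-1-3p, falls in bases 2 to 8.

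The 3 miR-26 hairpins lie in introns of 3 related genes for small phosphatases that act on the tail of RNA polymerase II, each on the strand of its host. In GRCm38, the miR-26a-1 hairpin is on chromosome 9 from 119031796 to 119031885 within Ctdspl. The miR-26a-2 hairpin is on chromosome 10 from 126995530 to 126995613 within Ctdsp2, where its largest overlap with an annotated exon is 1 base. The miR-26b hairpin is on chromosome 1 from 74394310 to 74394394 within Ctdsp1. The miR-101b hairpin (chromosome 19, 29135279 to 29135375) lies in an intron of Rcl1, a ribosomal RNA processing gene, and the miR-101a hairpin (chromosome 4, 101346945 to 101347027) in an exon of the long noncoding RNA gene E130102H24Rik, both on the strand of the gene. Mature miR-101c is annotated on chromosome 9 from 3038680 to 3038698, where no overlapping GENCODE gene was found, microRNA genes being left out of the search. The levels of the host transcripts were not measured.

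The longest annotated 3′ untranslated region of Ezh2, 402 bases in GENCODE, was searched on the sense strand for the complement of each seed. It holds TACTTGA, the match to the miR-26 seed, 1 time and GTACTGT, the match to the miR-101a-3p seed, 2 times. Of 15295 genes with a 3′ untranslated region at least as long, 2.85% and 2.71% hold these letters in their first 402 bases. The stretches are shown because they are where the members could pair with Ezh2, on the minus strand of chromosome 6, with the matched letters in capitals.
miR-101a-3p match, 59 to 65 bases after the stop codon: gcttcaggaaccttgaGTACTGTg
miR-101a-3p match, 114 to 120 bases after the stop codon: attctgaatttgcaaaGTACTGTa
miR-26 match, 248 to 254 bases after the stop codon: aaatttgaataaagaaTACTTGAa
The capitals lie at chr6:47530476-47530482, chr6:47530421-47530427 and chr6:47530287-47530293. The seeds of miR-101c (match AGTACTG, in 2.24% of the regions) and miR-101b-3p (match TACTGTA, in 3.33%) have 2 and 1 matches, which overlap those of miR-101a-3p. A match describes the letters only.

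The libraries held 8697384 to 13946613 reads with 1 entry per name. Levels are in CPM (counts scaled to library size) with TMM factors, which correct for differences in composition, and a count of 0 in a library allows up to 0.220 to 0.336 CPM (3 counts). As no molecular identifiers are described, this limit and the count interval below cover counting error only. The haematopoietic markers (both arms of miR-142a, miR-223-3p and miR-155-5p) summed to 71733 to 90742 CPM uninduced and 74236 to 91838 CPM induced. Of the other lists, the epithelial markers had 3 of 4 tested members that rose in edgeR, against 18 of all 525 tested microRNAs (3.43%), with a sum over all 6 markers of 31.5 to 39.2 CPM uninduced and 79.3 to 100.2 CPM induced. Erythroid markers summed to 22.9 to 36.5 CPM and 37.5 to 40.3 CPM (miR-144-3p at 0 reads), stromal ones to 162.5 to 201.4 CPM and 109.5 to 168.4 CPM (miR-214-3p at 0 reads), and muscle, liver and neural ones to at most 1.46 CPM each. The part of these cells in the results below was not tested.

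The miR-26 guides were abundant and their level with induction was close to that without. miR-26a-5p, the main guide of the family, took 3.52% of all reads and ranked 8 among the 1915 names. In trials 1, 2 and 3 its level was 35067, 36281 and 34551 CPM without and 34478, 39744 and 33215 CPM with doxycycline. The groups overlapped, with the induced library of trial 2 the highest of all and that of trial 3 the lowest. The fold change was 1.01 (95% interval 0.868 to 1.19) and the log2 change 0.021 (SE 0.10, edgeR adjusted p = 0.919). This fit ignored the pairing by trial, as did those below unless a block is named. Its interval ran from a slight decrease to a slight increase. A fit that compared libraries within a trial gave a log2 change of 0.017 (SE 0.077, edgeR adjusted p = 0.887).

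miR-26b-5p, the guide from the third hairpin, followed miR-26a-5p closely. It had 5799, 6168 and 6061 CPM uninduced and 5917, 6733 and 5860 CPM induced, again highest in the induced library of trial 2. The log2 change was 0.038 (SE 0.10, edgeR adjusted p = 0.855), a fold of 1.03 with an interval of 0.875 to 1.21. In every library miR-26a-5p had 5.67 to 6.05 times the reads of miR-26b-5p. The ratio differed between the groups by -0.019 on the log2 scale (exact permutation test, two-sided, p = 0.50, adjusted p = 0.70 over 7 ratios, where this unpaired test of 3 against 3 libraries cannot go below p = 0.10).

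**Figure D1:**
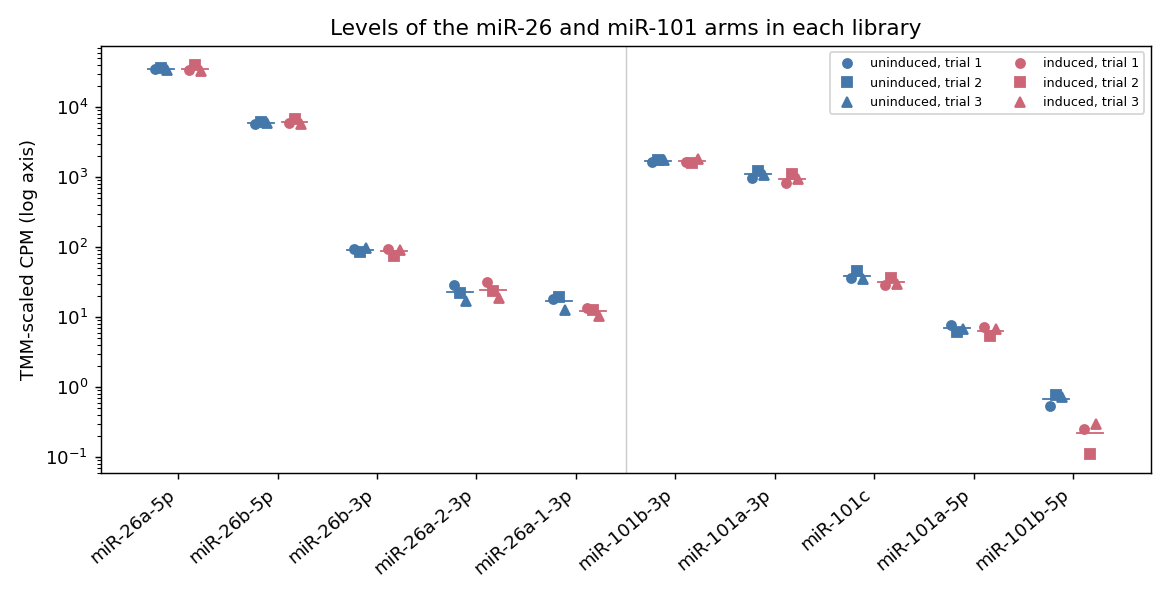
Level of each miR-26 and miR-101 arm in each library, in TMM-scaled CPM on a log axis, with uninduced libraries in blue, induced libraries in red, a marker shape per trial and a short line at the mean of each group of 3. miR-26a-5p stands highest at 33215 to 39744 CPM, and the groups overlap for each arm except miR-101b-5p, which had 28 reads in all.

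Their seeds being equal, the miR-26 guides can be summed into a single dose. It averaged 41309 CPM ± 995 without and 41983 CPM ± 3948 with induction (SD, n = 3 each), or 4.13% of all reads, of which miR-26a-5p gave 85.0% to 85.8% in each library. By trial the log2 change of the sum was -0.017, 0.13 and -0.056, so trials 1 and 3 were slightly lower and trial 2 higher, and the mean of the 3 (0.019) was smaller than their SD (0.098).

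The miR-101 guides were rarer. miR-101b-3p, the most abundant of them, had 1632, 1770 and 1770 CPM uninduced and 1654, 1619 and 1841 CPM induced. The groups overlapped fully, with the lowest and the highest value both among the induced libraries. Its log2 change was -0.017 (SE 0.11, edgeR adjusted p = 0.950), a fold of 0.989 with a 95% interval of 0.830 to 1.18.

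miR-101a-3p, whose seed has both matches shown above in Ezh2, had 989, 1232 and 1090 CPM uninduced and 827, 1102 and 930 CPM induced. It was lower in the induced library of each trial, but the groups overlapped because trial 2 was high in both. The log2 change was -0.21 (SE 0.15, edgeR adjusted p = 0.447), with changes by trial of -0.26, -0.16 and -0.23, and the interval of the fold ran from 0.689 to 1.08.

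miR-101c, whose sequence lies inside miR-101a-3p, was far rarer, and trial 2 was again the highest of each group. Its 35.9, 45.2 and 35.7 CPM uninduced compared with 28.7, 35.9 and 30.3 CPM induced, a log2 change of -0.30 (SE 0.16, edgeR adjusted p = 0.330). Its reads were 3.15% to 3.54% of those of miR-101a-3p and miR-101c together in each library, so its values are not an independent measurement where the reads match both.

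With their sequences overlapping but their annotated seeds not equal, the 3 miR-101 guides were summed as a family level only. The sum averaged 2867 CPM ± 197 without and 2689 CPM ± 157 with induction (SD, n = 3 each), or 0.276% of all reads, and it was lower in the induced library of each trial, by -0.082, -0.14 and -0.048 on the log2 scale. By seed as annotated, the dose without induction was 1724 CPM ± 79.4 for miR-101b-3p, 1104 CPM ± 122 for miR-101a-3p and 38.9 CPM ± 5.45 for miR-101c (SD, n = 3 each). The summed miR-26 guides had 13.9 to 16.9 times the reads of the summed miR-101 guides, and this ratio differed between groups by 0.11 on the log2 scale (exact permutation test, two-sided, p = 0.30, adjusted p = 0.70).

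Within the miR-101 family the ratio of miR-101a-3p to miR-101b-3p reads varied from trial to trial. miR-101a-3p had 0.606, 0.696 and 0.616 times the reads of miR-101b-3p in the uninduced libraries and 0.500, 0.681 and 0.505 times in the induced ones. Trial 2 stood highest in each group, and its induced value lay above 2 of the 3 uninduced ones. The groups differed by -0.20 on the log2 scale (exact permutation test, two-sided, p = 0.30, adjusted p = 0.70), with -0.28, -0.031 and -0.29 by trial.

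**Figure D2:**
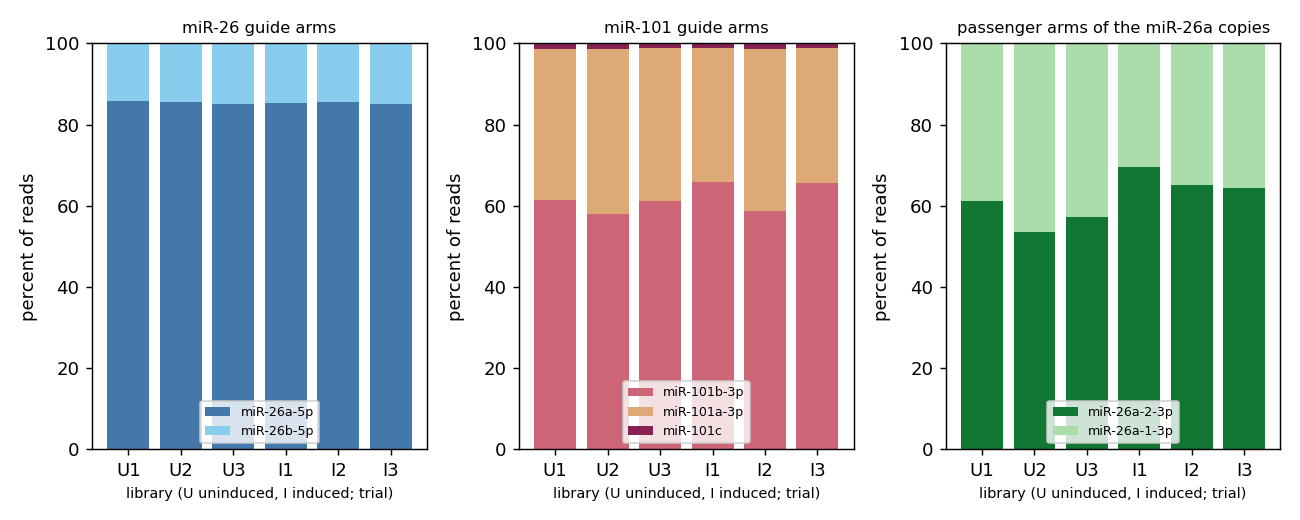
Share of reads in each library, in percent, for the miR-26 guides, the miR-101 guides and the passenger arms of the miR-26a copies, with U for uninduced, I for induced and the trial number. miR-26a-5p keeps 85.0% to 85.8% in all libraries, miR-101b-3p ranges from 58.1% to 65.9%, and miR-26a-2-3p takes 53.5% to 61.1% uninduced and 64.3% to 69.6% induced.

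The passenger arms were scarce. For miR-26a the passengers made up 0.0866% to 0.134% of the reads of the hairpins, for miR-26b 1.11% to 1.60%, for miR-101a 0.486% to 0.856% and for miR-101b 0.0069% to 0.0439%. Over all 6 libraries together, among 184 microRNAs with both arms listed and at least 1000 reads, the minor arm had a median share of 3.35%, and miR-101b, miR-26a, miR-101a and miR-26b ranked 4, 18, 41 and 70 from the most one-sided. All 4 thus gave a smaller share to the minor arm than the median.

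miR-26a-1-3p, the passenger from the Ctdspl intron, had 18.3, 19.5 and 12.8 CPM uninduced and 13.7, 12.7 and 10.4 CPM induced. It was lower in the induced library of each trial, by -0.41, -0.62 and -0.30 on the log2 scale, while the groups overlapped through the uninduced library of trial 3. The edgeR estimate was -0.46 (SE 0.21, adjusted p = 0.241), with an interval of the fold from 0.528 to 1.01.

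miR-26a-2-3p, the passenger from the Ctdsp2 intron, had 28.7, 22.3 and 17.1 CPM uninduced and 31.4, 23.8 and 18.8 CPM induced. Trial 1 was the highest and trial 3 the lowest in both groups, and each induced library lay slightly above its partner, by 0.13, 0.089 and 0.13 on the log2 scale. The edgeR estimate was 0.12 (SE 0.24, adjusted p = 0.829). The spread between trials was thus larger than the change within them.

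Because the guide is the same, only these passengers separate the copies. miR-26a-2-3p had 1.57, 1.15 and 1.34 times the reads of miR-26a-1-3p uninduced and 2.29, 1.88 and 1.80 times induced. The 2 groups of ratios did not overlap, and the log2 difference was 0.56, with 0.54, 0.71 and 0.43 by trial. This ratio was chosen after its values were seen. Its exact permutation p, two-sided, was 0.10, the smallest that this unpaired test can give for 3 against 3 libraries, and no paired test was run on it. The reads behind it were few, with 113 to 175 per library for miR-26a-1-3p and 187 to 378 for miR-26a-2-3p.

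miR-26b-3p had 93.8, 84.5 and 98.8 CPM uninduced and 95.5, 75.8 and 91.1 CPM induced, with trial 2 lowest in each group and overlapping groups (log2 change -0.078, SE 0.15), and its edgeR adjusted p was 0.813. The passenger miR-101a-5p had only 48 to 92 reads per library, or 5.38 to 7.79 CPM, and an estimate of -0.10 on the log2 scale (SE 0.20), where edgeR gave an adjusted p of 0.823. For pairs with at least 10 reads per arm in each library, the ratio of guide to passenger was compared between groups (log2 scale). For miR-26a-5p to miR-26a-1-3p the difference was 0.46 (exact permutation test, two-sided, p = 0.20). For miR-26a-5p to miR-26a-2-3p it was -0.10 (exact permutation test, two-sided, p = 0.70). The miR-26b arms gave 0.12 (exact permutation test, two-sided, p = 0.50). The miR-101a arms gave -0.10 (exact permutation test, two-sided, p = 0.80). In these exact permutation tests the adjusted p was 0.70 to 0.80. As both miR-26a hairpins make miR-26a-5p, its ratios share the same guide reads, and neither describes the arms of a single hairpin. The gap between them restates the ratio of the miR-26a passengers given above.

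miR-101b-5p was too rare to test. It had 5, 7 and 8 reads in the uninduced libraries and 3, 1 and 4 in the induced ones, the ratio of summed reads per scaled total being 0.339 (95% exact conditional interval 0.129 to 0.803, for counting error only). Its groups did not overlap, at 0.534 to 0.778 CPM against 0.112 to 0.294 CPM, but the induced values are at or near those a count of 0 allows. Its guide miR-101b-3p, from the same hairpin, had a log2 change of -0.017.

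**Figure D3:**
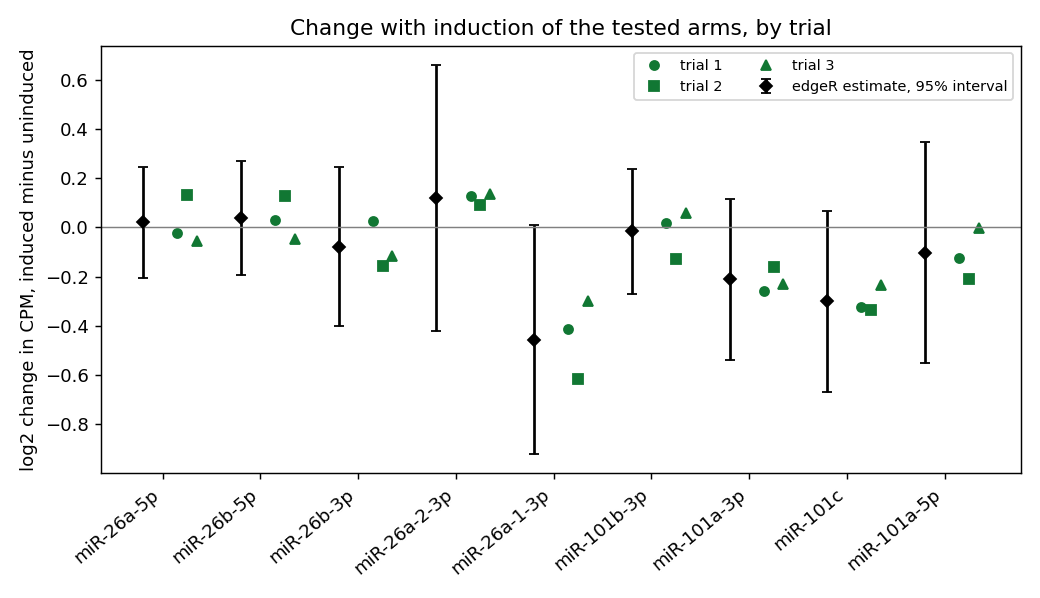
Log2 change of each tested arm, induced minus uninduced, as the edgeR estimate with its 95% interval (black) and in each trial (green, a marker per trial). All 9 intervals are from the fit that ignored the pairing by trial, and they include 0. The trials lie on both sides of 0 for miR-26a-5p, miR-26b-5p, miR-26b-3p and miR-101b-3p.

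Of the 10 members, 9 passed the filter on low counts and 0 of these 9 passed the edgeR quasi-likelihood test at a Benjamini-Hochberg adjusted p of 0.05, against 32 of all 525 tested microRNAs (6.10%). Before adjustment 0 of the 9 had an edgeR p under 0.05, against 20.8% of all tested, and DESeq2 and limma-voom passed 0 members each. Separate groups (no overlap in CPM) were seen for 0 of the 9, against 27.6%. The members' median log2 change was -0.078, beside 0.015 for all tested microRNAs, and the median size of the change regardless of sign was 0.10, beside 0.22.

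With the trial as a block, which compares libraries within a trial, 2 of the 9 passed, against 114 of 525 (21.7%), a share near the background. Both fell, as did 11.0% of all tested. These were miR-26a-1-3p (blocked log2 change -0.44 with SE 0.12, edgeR adjusted p = 0.020) and miR-101c (-0.30, SE 0.094, edgeR adjusted p = 0.042). Both lost the call when the libraries of any 1 trial were left out of the blocked fit. Without trials 1, 2 and 3 the edgeR adjusted p was 0.072, 0.155 and 0.107 for miR-26a-1-3p and 0.188, 0.190 and 0.107 for miR-101c. Their log2 changes were then -0.46, -0.36 and -0.52 for miR-26a-1-3p and -0.29, -0.28 and -0.34 for miR-101c. Both had fallen in each trial, so a negative sign without 1 trial adds no support. Over all tested microRNAs the same fits passed 66, 60 and 12, against 114 with all trials. miR-101a-3p, which contains the sequence of miR-101c, had a blocked edgeR adjusted p of 0.070 (-0.22, SE 0.078). Before adjustment 3 of the 9 had a blocked edgeR p under 0.05, against 37.1%. The sign of the change was the same in all 3 trials for 5 of 9 members, against 58.7% of all tested, with 1 higher (against 29.0%) and 4 lower (against 29.7%).

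**Figure D4:**
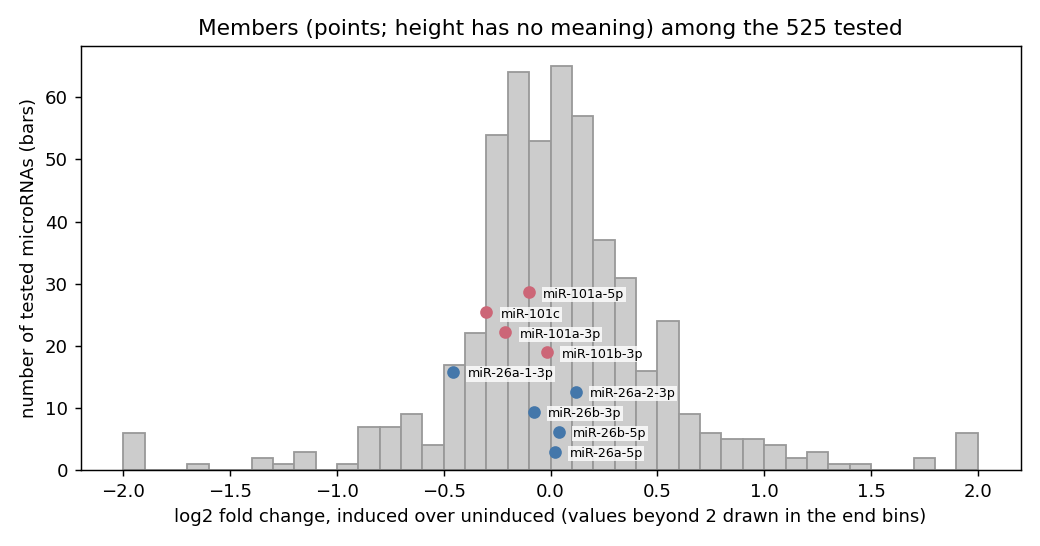
Distribution of log2 fold changes, induced over uninduced, for the 525 tested microRNAs (grey bars, number per bin), with the 9 tested members as labelled points, miR-26 arms in blue and miR-101 arms in red, whose height has no meaning. The members lie between -0.46 (miR-26a-1-3p) and 0.12 (miR-26a-2-3p), where the median size of the change over all tested microRNAs was 0.22.

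The order of the 10 arms by mean CPM was the same in both groups, namely miR-26a-5p, miR-26b-5p, miR-101b-3p, miR-101a-3p, miR-26b-3p, miR-101c, miR-26a-2-3p, miR-26a-1-3p, miR-101a-5p and miR-101b-5p. Neighbours in this order were separate in each group except for 2 pairs. miR-26a-2-3p and miR-26a-1-3p overlapped in the uninduced libraries, and miR-101c and miR-26a-2-3p in the induced ones.

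The microRNAs most like the leading guide of each family were taken by the root mean square difference of log2 CPM, each centred on its mean over the 6 libraries, among 161 other tested microRNAs of at least 100 CPM. For miR-26a-5p they were miR-30a-5p (0.026), miR-107-3p (0.029) and miR-320-3p (0.071), where the median of all candidates was 0.20. For miR-101b-3p they were miR-130b-3p (0.035), miR-467e-5p (0.067) and miR-338-3p (0.075), beside a median of 0.19. On the same measure miR-26b-5p was 0.032 from miR-26a-5p, miR-101c 0.073 from miR-101a-3p, and miR-101a-3p 0.19 from miR-101b-3p, so the 2 abundant miR-101 guides lay about as far apart as the median candidate. The libraries share trials and depth, so these distances are a description.

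Other microRNAs reported to act on Ezh2 were read out as a list of 12 guide arms, of which 6 were tested and 0 passed edgeR, against 6.10% of all tested. Before adjustment 3 of the 6 had an edgeR p under 0.05, against 20.8%. With the trial as a block 3 passed, against 21.7%, of which 1 was higher (against 10.7%) and 2 lower (against 11.0%). Of these, miR-30d-5p rose (log2 change 0.33, SE 0.076, edgeR adjusted p = 0.0082), while miR-98-5p (-0.36, SE 0.096, edgeR adjusted p = 0.020) and let-7a-5p (-0.43, SE 0.083, edgeR adjusted p = 0.0034), both of the let-7 family, fell. Without trials 1, 2 and 3 the blocked fit passed 1, 2 and 0 of the 6. The CPM groups of miR-30d-5p, miR-98-5p and let-7a-5p did not overlap, which held for 3 of the 6 against 27.6% of all tested. Before adjustment 5 of the 6 had a blocked edgeR p under 0.05, against 37.1%. In all 3 trials 2 of the 6 were higher (against 29.0%) and 4 lower (against 29.7%).

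miR-30d-5p had 15151, 16410 and 14055 CPM uninduced and 19769, 21321 and 16619 CPM induced, below miR-26a-5p in every library and above miR-26b-5p. miR-98-5p had 2287, 2820 and 1901 CPM uninduced and 1713, 1893 and 1789 CPM induced, so the highest induced library lay just below the lowest uninduced one. The median log2 change of the 6 without the block was -0.13, beside 0.015 for all tested. Let-7b-5p (-0.051, SE 0.16), let-7c-5p (-0.20, SE 0.14) and miR-138-5p (0.34, SE 0.23) did not pass either fit. Without the block, leaving out the uninduced library of trial 3 passed 2 of the 6 (miR-98-5p and let-7a-5p, edgeR adjusted p of 0.046 and 0.041), and DESeq2 passed 1, let-7a-5p (adjusted p = 0.044).

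The other 6 of the list were rare or not seen. miR-214-3p, miR-124-3p, miR-144-3p and miR-217-5p had 0 reads in all libraries, miR-203-3p had 23 reads and miR-205-5p 7 reads in all.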

How the data were processed

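Small RNA from 6 libraries of iBN cells (3 uninduced, 3 induced) was analysed from the deposited tables. The authors deposited raw read counts in 2061 entries, per the file headers. Reads were aligned to miRBase, per the series' design text, and Trim Galore 0.4.0, DESeq2 (listed as 2.1.8.0) and mm10 are named in the submitters' processing notes. How reads were counted, and how those with several matches were treated, is not given in the sources used here. The authors also deposited normalized CPM values, which were not used for tests. Each of the 1915 mature names was represented by its entry with the most reads. For miR-26a-5p, entered once per copy, the 2 entries differed by at most 10 reads in a library.

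Counts were tested with edgeR 4.0.16 (R 4.3.3) on TMM factors, filterByExpr by group (525 kept, with 99.99% of the reads), robust glmQLFit and glmQLFTest (two-sided), adjusted by Benjamini-Hochberg over all 525. SEs are the log2 change over the root of F. DESeq2 1.42.0 and limma 3.58.1 (voom) were alternatives, as were RLE factors, library totals, other filters, the sum or lowest entry and each library left out. The unblocked fit was tested on simulated counts without a trial effect. This did not check the blocked fit, and the changes put in were larger than the edgeR estimate of any tested member. The labels number trials 1, 2 and 3 in both groups. After subtraction of group means, libraries of the same trial correlated by 0.33, 0.45 and 0.53 (log2 CPM, prior count 2), so the trials can be read as pairs. The main fit, its intervals and the permutation tests ignored this pairing. The fit with the trial as a block is given where it changes a call.

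Members and lists were chosen with earlier results of these data known. All 10 members and the Ezh2 list are named whatever their result, with the 3 most alike microRNAs per leading guide and those sharing bases 2 to 7 of a seed. Hairpins were placed with RefSeq and GENCODE on GRCm38.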

Additional observations from a re-analysis of the deposited data

How the results depend on the processing

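The number of members passing was 0 in each unblocked alternative, including each of the 6 fits without 1 library, and 2 with the trial as a replicate block. Without replicates 1, 2 or 3 of both groups (added after seeing the data) the blocked fit passed 0. Over all microRNAs 114 passed with the block, 18 with at least 10 CPM on average, 12 to 41 without 1 library (12 and 17 without uninduced replicates 1 and 2, 16 and 14 without induced replicates 1 and 2), and 66, 60 and 12 with the block and without replicates 1, 2 and 3. Of the other Ezh2 microRNAs 3 passed with the block, 1 with DESeq2, 1 with no low count filter, 0 to 2 without 1 library, and 1, 2 and 0 with the block and without replicates 1, 2 and 3. The log2 change of the summed miR-101 guides was -0.092 and ranged from -0.16 to -0.036 without 1 library.

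Signs changed for the summed miR-26 guides (0.023, and -0.068 to 0.056 without 1 library), and for uncalled values of single members and ratios. miR-26a-5p had -0.0059 with DESeq2, -0.045 with the block without replicate 2, and -0.072 to 0.053 without 1 library. miR-26b-5p had -0.014 with the block without replicate 2 and -0.041 to 0.073 without 1 library. miR-101b-3p had 0.0099 with at least 10 CPM on average, 0.034 with the block without replicate 2, and -0.11 to 0.014 without 1 library. Without 1 library, miR-26a-2-3p ranged from -0.089 to 0.30 and miR-26b-3p from -0.14 to 0.0028. The log2 ratios ranged from -0.041 to 0.0019 (miR-26a-5p to miR-26b-5p), -0.29 to 0.11 (miR-26a-5p to miR-26a-2-3p), -0.046 to 0.21 (miR-26b arms) and -0.34 to 0.076 (miR-101a arms). The cause was not tested. The log2 difference in the ratio of the miR-26a passengers, chosen after its values were seen, ranged from 0.45 to 0.68 without 1 library. Its groups did not overlap, so leaving out 1 library could not change its sign. With 3 libraries per group and no block, the 95% intervals of the log2 change reached 0.25 for miR-26a-5p, 0.27 for miR-26b-5p, -0.27 for miR-101b-3p and -0.54 for miR-101a-3p. In this order their SEs were 0.10, 0.10, 0.11 and 0.15, against 0.077, 0.076, 0.078 and 0.078 with the block.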

Other observations

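Other mature microRNAs that share bases 2 to 7 with a member guide were looked up among 1679 RefSeq names. miR-144-3p, the erythroid microRNA, shares them with miR-101a-3p (C8U, counted from the 5′ end, is the first difference) and miR-6371 with both miR-26 guides, and each had 0 reads in all 6 libraries. miR-582-5p shares them with miR-101b-3p as annotated and had 305 to 415 reads per library, with a log2 change of -0.26 (SE 0.21, edgeR adjusted p = 0.547), at 36.8 CPM ± 8.53 without and 30.8 CPM ± 6.17 with induction (SD, n = 3 each).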
